A study of Homo sapiens with 12 samples.

Results

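The genes described here were chosen by name and function: TLR9, TLR3, MYD88, IRAK1, IRAK4, CGAS, STING1, TBK1, IFI16 and TREX1. Most sense DNA inside the cell or carry that signal on, whereas TLR3 senses RNA and TREX1 degrades DNA. Of these 10 genes, 8 had a probe set annotated to that gene alone, among 19775 genes with such a probe set on the array. IRAK4 is not listed in the probe annotation used here, and TREX1 is listed only in 3 probe sets shared with ATRIP, so neither gene was given a value. Where a gene had several probe sets, the one with the highest mean over all arrays was used.

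RNA of Hs578T and BT-20 cells was measured on 12 HG-U133 Plus 2.0 arrays of Affymetrix. Both are established human breast cancer cell lines. All cells received 200 nM of an oligonucleotide with the liposomal transfection reagent DOTAP for 24 h, and no untreated or reagent-only array was used here, so every group shares the transfection. Each line had 2 arrays with CDH13 M, a double-stranded oligonucleotide with methylated CpG cytosines, 2 arrays with CDH13 U, the same sequence unmethylated, 1 array with ODN 2006, a single-stranded CpG oligonucleotide, and 1 array with ODN 2006 CTL, its GpC control. The 2 arrays per CDH13 oligonucleotide are biological replicates named set 1 and set 2, and the array names of set 1 end in another number than those of set 2 and of all ODN arrays. These groups of arrays are called run 1 (set 1) and run 2 here, a term the labels do not use. Values are log2 expression as summarised by the submitters with GCRMA, and a level of 5 was taken as reached expression, a chosen level and not a detection call. Levels of different genes come from different probes and are not compared with each other. Bulk RNA cannot separate fewer expressing cells from less RNA per cell.

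TLR9 sits in endosomes and binds DNA with unmethylated CpG motifs, and TLR3 binds double-stranded RNA in the same compartment. TLR9 signals through the adaptor MYD88 and the kinases IRAK4 and IRAK1 towards NF-kB, whereas TLR3 uses another adaptor, TICAM1. In the cytosol, CGAS binds double-stranded DNA of any sequence and makes a cyclic dinucleotide that activates STING1, which recruits the kinase TBK1. IFI16 binds double-stranded DNA in the nucleus and cytosol, and TREX1 degrades cytosolic DNA. High TLR9 is known from B cells and plasmacytoid dendritic cells.

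The oligonucleotides are shown because CpG against GpC (ODN 2006 and its control) and CpG methylation (CDH13 M and U) are what each pair differs in. Capitals mark CpG in ODN 2006 and CDH13 U, GpC in ODN 2006 CTL, and the methylated cytosines in CDH13 M, at bases 2, 7, 11 and 16 from the 5′ end of the upper strand and, in the complementary strand, at bases 14, 19, 23 and 28.
ODN 2006: tCGtCGttttgtCGttttgtCGtt
ODN 2006 CTL: tGCtGCttttgtGCttttgtGCtt
CDH13 M: tCggatCgccCggcaCgggcagggtgaggg
CDH13 M complementary strand: ccctcaccctgccCgtgcCgggCgatcCga
CDH13 U: tCGgatCGccCGgcaCGggcagggtgaggg
CDH13 U complementary strand: ccctcaccctgccCGtgcCGggCGatcCGa
ODN 2006 has 24 bases and 4 CpG dinucleotides, and the letters GTCGTT, known as a motif that human TLR9 responds to, occur 3 times in it and 0 times in its control. ODN 2006 CTL has 0 CpG and 4 GpC dinucleotides at the same places. Each CDH13 strand has 30 bases with 4 CpG dinucleotides and 0 matches to GTCGTT.

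Of the 8 genes measured, 5 reached 5 on all 6 Hs578T arrays (IFI16, MYD88, STING1, IRAK1 and TBK1) and 3 did so on all 6 BT-20 arrays (MYD88, IRAK1 and TBK1). TLR9, TLR3 and CGAS stayed under 5 on all 12 arrays. IFI16 reached 5 on 5 of 6 BT-20 arrays and STING1 on 2 of 6.

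**Figure D1:**
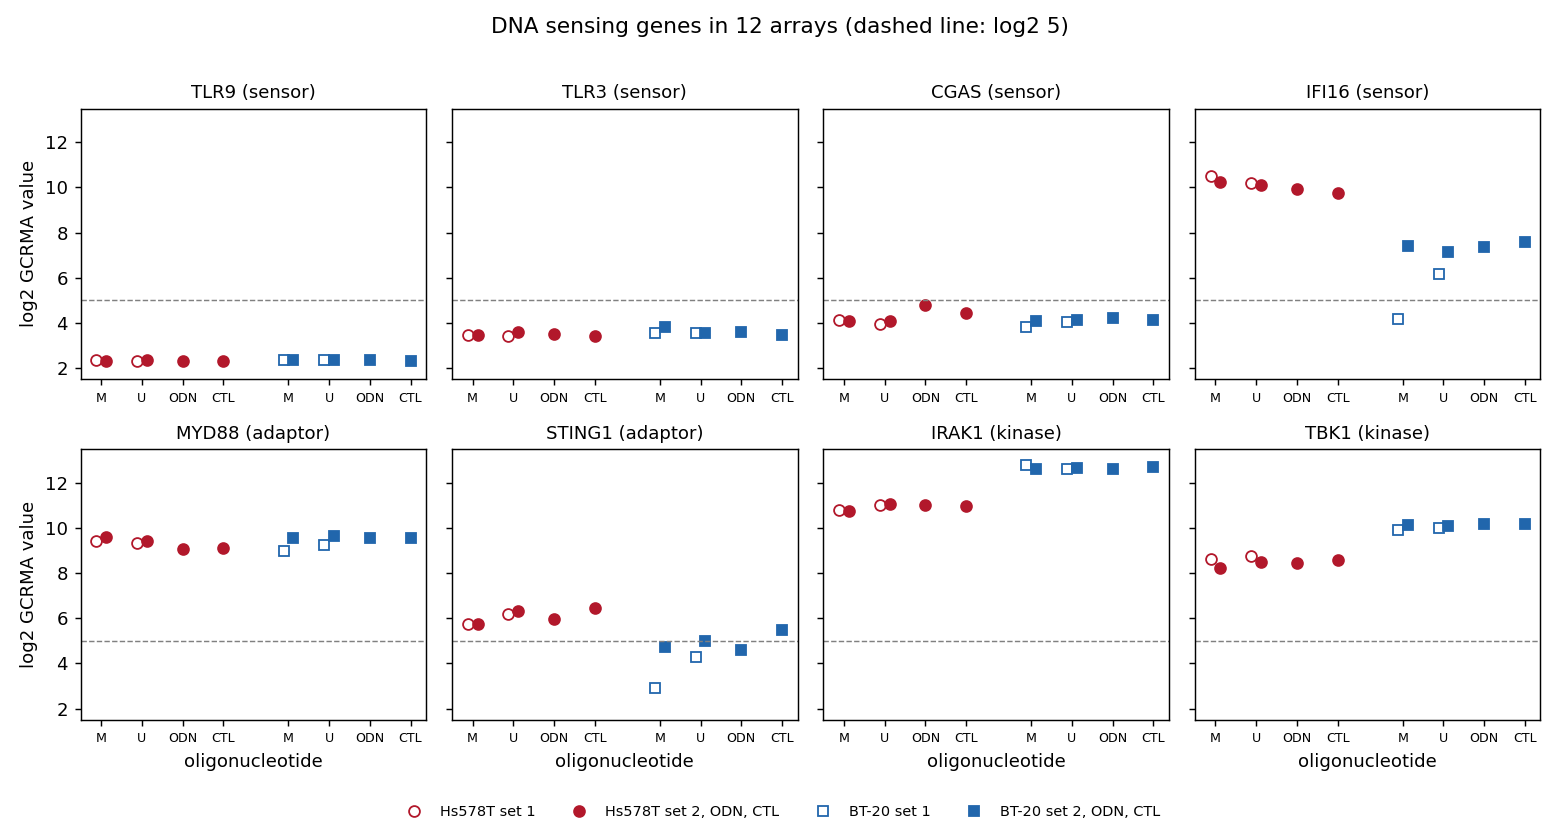
Log2 GCRMA value (vertical axis) of the 8 measured genes in each of the 12 arrays, with Hs578T as circles and BT-20 as squares, set 1 open and all other arrays filled, and the oligonucleotide on the horizontal axis. TLR9, TLR3 and CGAS lie below the dashed line at 5 on all 12 arrays, and the set 1 arrays of BT-20 lie lowest for IFI16 and STING1.

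Among the sensors, TLR9 (probe set 223903_at, gene at chr3:52221080-52225645 of GRCh38.p14) lay between 2.31 and 2.33 on the 6 Hs578T arrays, with a mean of 2.32 ± 0.0099 (SD, n = 6). On the 6 BT-20 arrays it lay between 2.32 and 2.34, with a mean of 2.33 ± 0.0075 (SD, n = 6). The values hardly varied between lines or oligonucleotides and lay below the array medians of 3.01 to 3.09 over all probe sets. TLR3 (242667_at, chr4:186069156-186088073) averaged 3.47 ± 0.059 in Hs578T and 3.58 ± 0.13 in BT-20 (SD, n = 6 each). Its other probe sets also stayed under 5, with a highest value of 4.28.

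CGAS (242077_x_at, chr6:73423711-73452297) measured 4.78 with ODN 2006, 4.44 with ODN 2006 CTL, 4.10 and 4.06 with CDH13 M and 3.96 and 4.09 with CDH13 U in Hs578T. In BT-20 it measured 4.23 with ODN 2006, 4.10 with ODN 2006 CTL, 3.82 and 4.08 with CDH13 M and 4.01 and 4.11 with CDH13 U. Both ODN arrays of Hs578T lay above the 4 CDH13 arrays of that line, but all were under 5 and the gene was not tested. Another CGAS probe set, 1559051_s_at, gave another picture. In Hs578T it measured 3.68 with ODN 2006, 3.97 with ODN 2006 CTL, 4.89 and 5.65 with CDH13 M and 5.33 and 4.46 with CDH13 U, so here the ODN arrays were the lowest of the line. In BT-20 it stayed between 2.47 and 2.53. The correlation of these probe sets over the 12 arrays was 0.031, so whether CGAS reached 5 in Hs578T depended on the probe set.

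**Figure D2:**
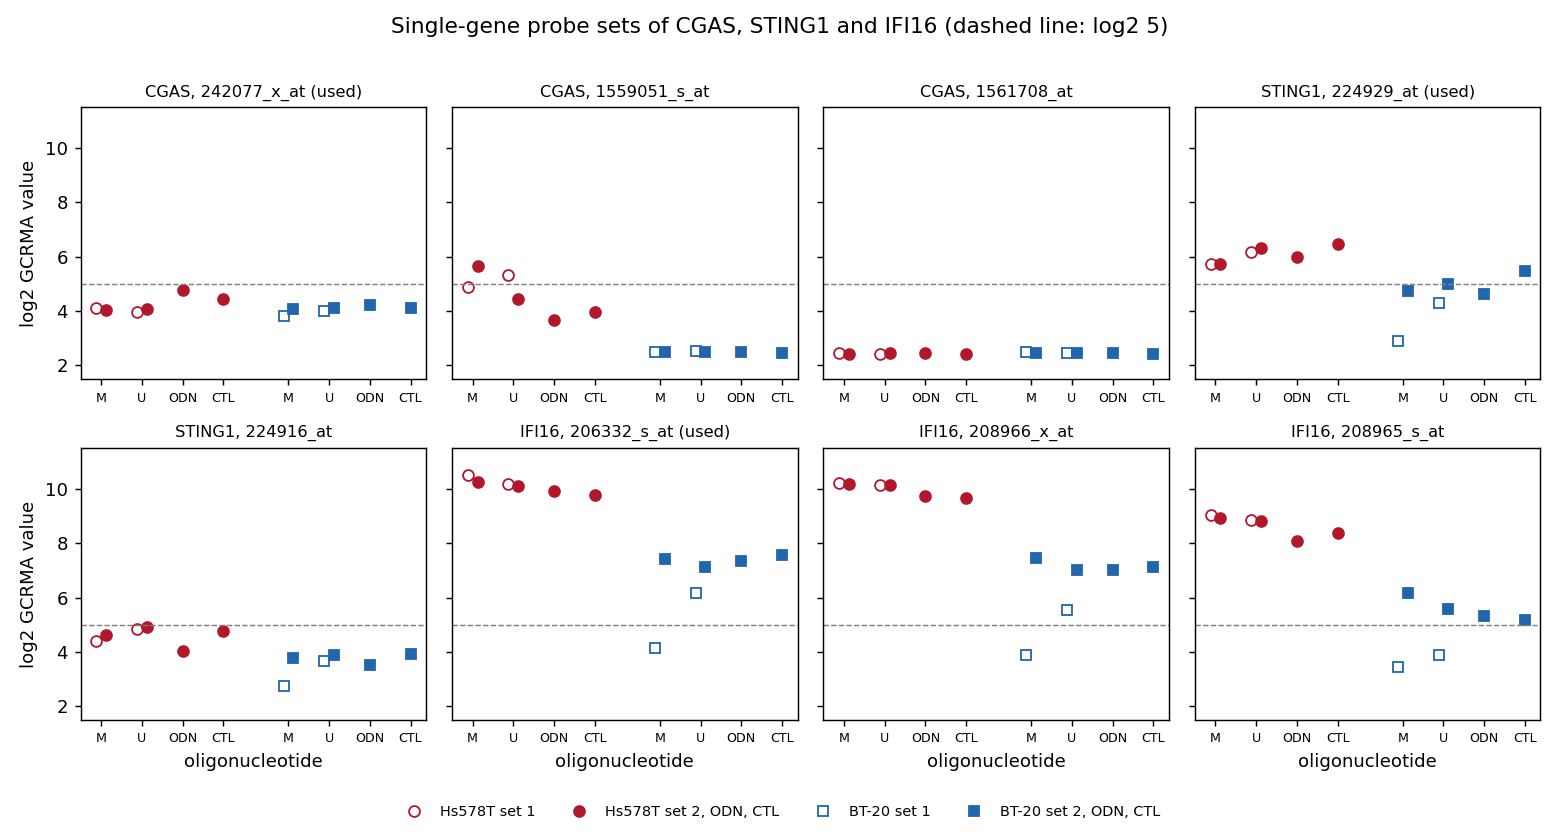
Log2 GCRMA value (vertical axis) of every probe set annotated to CGAS, STING1 or IFI16 alone, by oligonucleotide (horizontal axis), with Hs578T as circles and BT-20 as squares and set 1 open. Probe set 1559051_s_at of CGAS passes the dashed line at 5 on 2 Hs578T arrays, whereas the probe set used does so on 0, and the 3 probe sets of IFI16 share the low values of the BT-20 set 1 arrays.

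IFI16 (206332_s_at, chr1:158999976-159055151) was the sensor with the highest count of arrays at 5. In Hs578T it measured 10.51 and 10.25 with CDH13 M, 10.18 and 10.12 with CDH13 U, 9.93 with ODN 2006 and 9.76 with ODN 2006 CTL. In BT-20 it measured 4.14 and 7.41 with CDH13 M, 6.16 and 7.13 with CDH13 U, 7.34 with ODN 2006 and 7.57 with ODN 2006 CTL. The lines did not overlap, and the 2 BT-20 arrays of set 1 were the lowest of all. The other probe sets of IFI16 followed the one used over the 12 arrays (r = 0.997 and 0.973).

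Of the adaptors, MYD88 (209124_at, chr3:38138661-38143022) measured 9.43 and 9.60 with CDH13 M, 9.33 and 9.42 with CDH13 U, 9.09 with ODN 2006 and 9.11 with ODN 2006 CTL in Hs578T. In BT-20 it measured 9.004 and 9.58 with CDH13 M, 9.27 and 9.67 with CDH13 U, 9.55 with ODN 2006 and 9.59 with ODN 2006 CTL. The lines overlapped, and the set 1 arrays of BT-20 were again the lowest of that line. STING1 (224929_at, chr5:139475533-139482758) measured 5.75 and 5.74 with CDH13 M, 6.19 and 6.34 with CDH13 U, 5.98 with ODN 2006 and 6.46 with ODN 2006 CTL in Hs578T. In BT-20 it measured 2.90 and 4.74 with CDH13 M, 4.31 and 5.00 with CDH13 U, 4.62 with ODN 2006 and 5.46 with ODN 2006 CTL. All Hs578T values lay above all BT-20 values. The other STING1 probe set, 224916_at, stayed under 5 on all 12 arrays, between 4.02 and 4.92 in Hs578T and between 2.73 and 3.93 in BT-20, and followed the one used (r = 0.941).

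Of the kinases, IRAK1 (201587_s_at, chrX:154010507-154019902) measured 10.82 and 10.77 with CDH13 M, 11.03 and 11.09 with CDH13 U, 11.02 with ODN 2006 and 10.98 with ODN 2006 CTL in Hs578T. In BT-20 it lay between 12.61 and 12.82 on all 6 arrays. TBK1 (218520_at, chr12:64452120-64502114) measured 8.62 and 8.25 with CDH13 M, 8.79 and 8.52 with CDH13 U, 8.47 with ODN 2006 and 8.57 with ODN 2006 CTL in Hs578T, and between 9.91 and 10.21 on the 6 BT-20 arrays. For both kinases every BT-20 array lay above every Hs578T array. The lines were also apart for IFI16 and STING1, with Hs578T above. The share of all genes with such a separation is not given here. By the limma comparison below, 74.6% of all genes tested were called between the lines.

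The lines were compared over their CDH13 M and U arrays (4 against 4), by limma with Benjamini-Hochberg adjustment over all 10410 genes at 5 or above in at least 2 of the 8 arrays. At adjusted p under 0.05, 4 of the 5 genes tested differed between the lines, against a background of 74.6% of all genes tested, so such a call is common here. IFI16 and STING1 were higher in Hs578T, as were 34.4% of the genes tested. IRAK1 and TBK1 were lower, as were 40.2%. TLR9, TLR3 and CGAS did not pass the filter and were not tested.

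IFI16 was 4.05 higher on the log2 scale in Hs578T (mean 10.26 ± 0.17) than in BT-20 (mean 6.21 ± 1.48, SD, n = 4 each; SE 0.67, limma adjusted p = 0.00132). Within set 2 the IFI16 difference was 2.91 (SE 0.15, limma adjusted p = 0.000151). Within set 1 it was 5.19 (SE 0.67, limma adjusted p = 0.00183). Without the CDH13 M array of set 1 in BT-20 it was 3.23. Within a set, the M and U arrays served as replicates of a line, so those p-values leave out the spread between sets. STING1 was 1.77 higher in Hs578T (mean 6.004 ± 0.31) than in BT-20 (mean 4.24 ± 0.94, SD, n = 4 each; SE 0.39, limma adjusted p = 0.00544). STING1 passed the filter through Hs578T, since 1 of these 4 BT-20 arrays reached 5, and with values under 5 raised to 5 the STING1 difference was 1.00. Raised in this way, a check chosen after seeing the data for the subsets, it was 1.03 within set 2, 0.97 within set 1 and 1.00 without the CDH13 M array of set 1 in BT-20.

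IRAK1 was lower in Hs578T (mean 10.93 ± 0.15) than in BT-20 (mean 12.69 ± 0.087, SD, n = 4 each), with a log2 difference of -1.77 (SE 0.090, limma adjusted p = 4.08e-06). TBK1 differed by -1.50 (SE 0.13, limma adjusted p = 5.70e-05), with means of 8.55 ± 0.23 in Hs578T and 10.04 ± 0.11 in BT-20 (SD, n = 4 each). MYD88 differed by 0.06 (95% interval -0.32 to 0.45, limma adjusted p = 0.734), a difference within the spread between arrays whose sign turned to -0.39 with housekeeping centring. The exact two-sided permutation of 4 against 4 arrays gave p = 0.0286 for IFI16, STING1, IRAK1 and TBK1. This is the smallest that 70 permutations allow. For MYD88 the permutation gave p = 0.743. The M and U arrays of a set shared deviations, so the 4 arrays of a line are not 4 independent replicates. The permutation and limma p-values between the lines can therefore be too small. Housekeeping centring subtracted each array's median of 11 housekeeping genes. That median fell on PGK1, at 13.66 to 13.79 in Hs578T and 13.12 to 13.40 in BT-20, so the centring followed PGK1 alone. The 11 genes had a median difference of -0.05 between the lines, with 3 higher and 8 lower in Hs578T. The centring moved the median difference of all genes to -0.53, against -0.09 as deposited, and the 4 calls held under it. Over all genes it called 2418 higher and 5891 lower, against 3580 and 4189 as deposited.

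**Figure D3:**
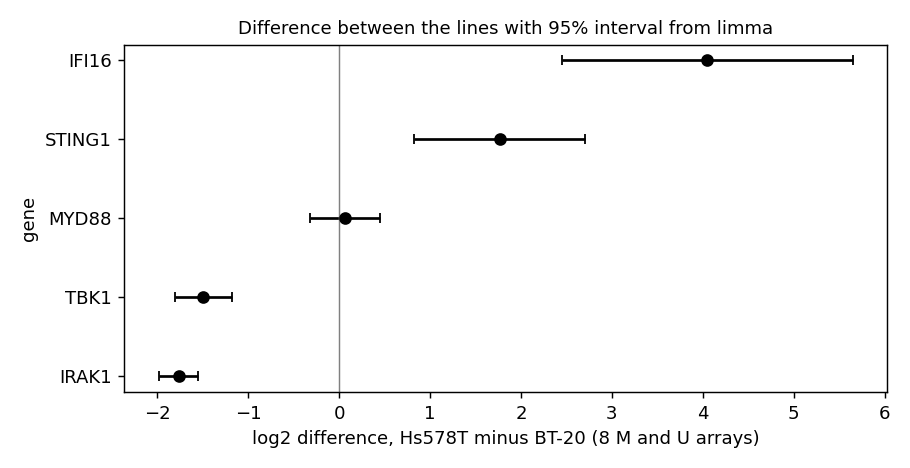
Log2 difference of Hs578T minus BT-20 (horizontal axis) for the 5 genes tested, over 4 CDH13 M and U arrays per line, with the 95% interval from limma as bars. IFI16 and STING1 lie right of 0, MYD88 spans 0 and TBK1 and IRAK1 lie left of 0.

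Epithelial and mesenchymal markers were read in lists chosen with earlier results of these data known. They describe the lines and do not test their identity. All 12 mesenchymal markers reached 5 on all 6 Hs578T arrays and all 12 epithelial markers on all 6 BT-20 arrays. The sets were not exclusive, since 4 mesenchymal markers, FN1 and COL5A1 included, also reached 5 on all 6 BT-20 arrays, and 2 epithelial markers, KRT18 included, on all 6 Hs578T arrays. Of 13 leukocyte markers measured, 11 stayed under 5 on all 12 arrays, among them MS4A1 and CLEC4C. The median level of the list was 2.66 to 2.67 in Hs578T and 2.67 to 2.74 in BT-20. Its summed level was log2 8.33 to 9.67 in Hs578T, set mostly by TCF4, and 6.92 to 7.34 in BT-20. TCF4, a leukocyte list gene that mesenchymal cells also express, reached 5 on all 12 arrays, and LILRA4 did so on 1 BT-20 array. The range of TCF4 was 7.90 to 9.51 in Hs578T and 5.13 to 6.06 in BT-20.

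Of the 96 genes tested in the other pathway lists, 77.1% were called between the lines (44.8% higher and 32.3% lower in Hs578T), against 74.6% of all genes tested (34.4% higher and 40.2% lower), so calls were common in these lists, as in all genes. Of the 74 called, 11 lay under 5 on all 4 CDH13 arrays of BT-20 and 3 on all 4 of Hs578T. Over all genes, these counts were 849 and 723 of 7769 called. Such genes passed the filter through the line where they were high. Of the other Toll-like receptors only TLR4, the receptor for bacterial lipopolysaccharide, reached 5, on all 6 Hs578T arrays and 0 BT-20 arrays (log2 difference 4.25, SE 0.44, limma adjusted p = 0.000128). It passed the filter through Hs578T, and with values under 5 raised to 5 the TLR4 difference was 2.80. The 7 others, TLR7 and TLR8 included, stayed under 5 on all 12 arrays. The list of genes that traffic and process endosomal receptors also holds LY96, the co-receptor of TLR4. In this list, 7 of 13 tested genes were higher and 2 lower in Hs578T (69.2% called). LY96 measured 9.39 to 9.96 on the CDH13 arrays of Hs578T, against 2.36 to 2.402 in BT-20, and the difference was 4.62 with values under 5 raised to 5. The protease CTSB, a cathepsin of endolysosomes, averaged 12.85 ± 0.082 in Hs578T and 8.96 ± 0.15 in BT-20 (SD, n = 4 each). UNC93B1, which carries TLR9 from the endoplasmic reticulum to endosomes, lay between 3.80 and 4.04 in Hs578T and between 4.21 and 4.87 in BT-20, so it stayed under 5 together with TLR9.

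Among TLR signalling adaptors, kinases and inhibitors, 8 of 17 tested genes were higher and 7 lower in Hs578T (88.2% called). IRAK2, a relative of IRAK1 in the same receptor complex, averaged 7.42 ± 0.24 in Hs578T and 3.23 ± 0.043 in BT-20 (SD, n = 4 each), where IRAK1 was lower in Hs578T. SARM1, an inhibitor of TLR adaptors, averaged 6.92 ± 0.46 in Hs578T and 2.94 ± 0.35 in BT-20 (SD, n = 4 each). Of the other cytosolic nucleic acid sensors, 4 of 18 tested genes were higher and 6 lower (55.6% called), and IFIH1, a double-stranded RNA sensor, averaged 4.70 ± 0.32 in Hs578T and 6.81 ± 0.41 in BT-20 (SD, n = 4 each). Of the regulators of CGAS and STING1, 9 of 23 were higher and 11 lower (87.0% called), and ENPP1, which degrades the CGAS product, averaged 7.71 ± 0.25 in Hs578T and 4.09 ± 0.43 in BT-20 (SD, n = 4 each). Of the nucleases, 6 of 13 were higher and 5 lower (84.6% called). PLD3, an exonuclease that degrades single-stranded DNA in lysosomes, averaged 7.29 ± 0.16 in Hs578T and 2.47 ± 0.20 in BT-20 (SD, n = 4 each). IRAK2, SARM1, ENPP1 and PLD3 stayed under 5 on all 6 BT-20 arrays, so they passed the filter through Hs578T. IFIH1 reached 5 on 1 of 6 Hs578T arrays and on all 6 of BT-20. Differences that rest on values under 5 are uncertain in size.

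Genes that interferon or NF-kB signalling induces form a list chosen with earlier results of these data known. They were called higher in Hs578T for 8 of 11 tested and lower for 0. This is 72.7% higher and 0% lower, against 34.4% higher and 40.2% lower of all genes tested (74.6% in either direction). Of these 8, 3 lay under 5 on all 4 CDH13 arrays of BT-20, IL6 among them. The cytokine IL6 averaged 10.97 ± 0.32 in Hs578T and 2.94 ± 0.56 in BT-20, and the ubiquitin-like ISG15 averaged 9.25 ± 0.22 in Hs578T and 7.72 ± 0.23 in BT-20 (SD, n = 4 each). IFNB1, the type I interferon gene downstream of STING1 and TBK1, lay between 2.39 and 2.43 in Hs578T and between 2.397 and 2.45 in BT-20, so it stayed under 5 with every oligonucleotide used.

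The comparison of CDH13 M with CDH13 U asked whether methylation of the CpG cytosines changed expression. It called 0% of 10410 genes by limma in each of the lines, in their mean and in their difference, with 680, 174, 543 and 258 genes (Hs578T, BT-20, mean and difference) at an unadjusted p under 0.05, and so 0 of the 5 genes tested here. STING1 was the gene with the same sign throughout. It was lower with CDH13 M in every pair, with log2 differences of -0.44 in set 1 and -0.60 in set 2 of Hs578T, and of -1.41 in set 1 and -0.26 in set 2 of BT-20. Over both lines the STING1 difference was -0.68 (95% interval -1.62 to 0.26, limma adjusted p = 0.951). It does not exceed the spread between arrays in this fit, which did not pair the sets. With values under 5 raised to 5 it was -0.26 over both lines and -0.0025 in BT-20.

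STING1 was also lower with ODN 2006 than with ODN 2006 CTL, with differences of -0.48 in Hs578T and -0.85 in BT-20. Of 10543 genes, 5.08% were lower in all 6 of these pairs and 12.1% in all 4 pairs of M and U. The other STING1 probe set, all of whose values lay under 5, measured 4.41 and 4.63 with CDH13 M against 4.86 and 4.92 with CDH13 U in Hs578T, and 2.73 and 3.78 with CDH13 M against 3.66 and 3.89 with CDH13 U in BT-20. It was lower with ODN 2006 in both lines too, at 4.02 against 4.79 with ODN 2006 CTL in Hs578T and at 3.51 against 3.93 in BT-20. Both probe sets thus had the same sign in all 6 pairs, but they were read from the same RNA.

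The differences of IFI16 had one sign in Hs578T and opposite signs in the sets of BT-20. They were 0.33 and 0.13 in set 1 and set 2 of Hs578T, -2.02 in set 1 of BT-20 and 0.28 in set 2. The BT-20 difference was -0.87 (95% interval -3.13 to 1.39, limma adjusted p = 1.00), and the CDH13 M array of set 1 sets its sign, since it was 0.77 without that array. IRAK1 was lower with CDH13 M in both Hs578T pairs (-0.26, 95% interval -0.56 to 0.04, limma adjusted p = 0.789) and differed by 0.05 in BT-20. MYD88 was higher with CDH13 M in both Hs578T pairs and lower in both BT-20 pairs, and TBK1 differed by -0.22 in Hs578T and -0.02 in BT-20, none past the threshold. In the other lists 0 genes were called, the smallest unadjusted p in Hs578T being that of TRAF6, the ubiquitin ligase downstream of IRAK1 (-0.63, limma adjusted p = 0.598).

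**Figure D4:**
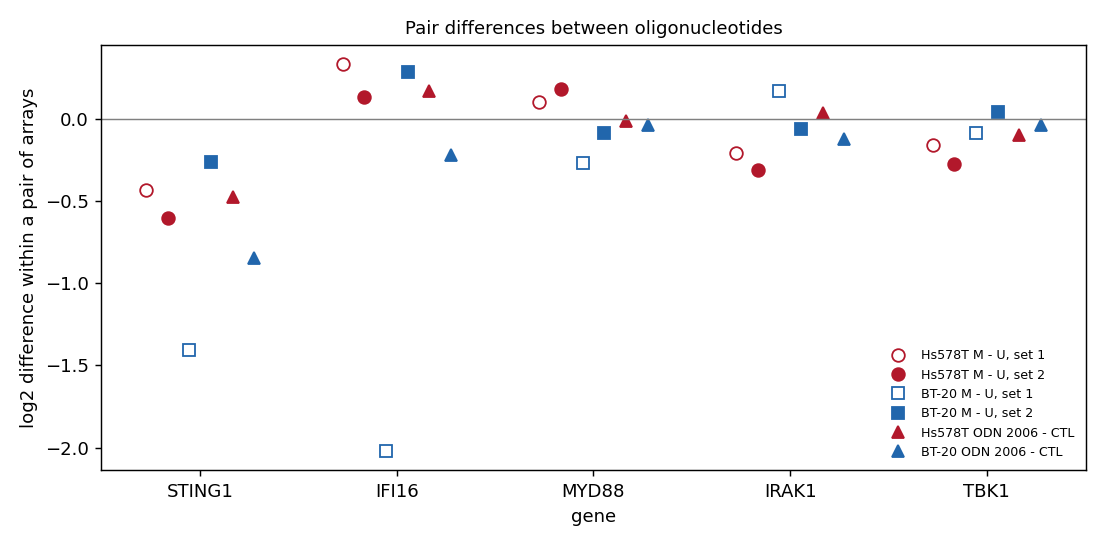
Log2 difference within each pair of arrays (vertical axis) for the 5 genes tested (horizontal axis), CDH13 M minus U as circles (Hs578T) and squares (BT-20), set 1 open and set 2 filled, and ODN 2006 minus ODN 2006 CTL as triangles. STING1 lies below 0 in all 6 pairs, and IFI16 lies at -2.02 in set 1 of BT-20 and between -0.22 and 0.33 elsewhere.

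ODN 2006 was compared with ODN 2006 CTL over both lines, with 1 array per group and line, so that the spread came from the replicated CDH13 groups. Of 10543 genes limma called 1 (0.00948%), with 490 at an unadjusted p under 0.05, and 0 of the 5 genes tested here. STING1 differed by -0.66 (95% interval -1.99 to 0.67), MYD88 by -0.03 (-0.58 to 0.52) and IFI16 by -0.03 (-2.29 to 2.24), each with limma adjusted p = 0.999. IRAK1 differed by -0.04 (-0.35 to 0.26) and TBK1 by -0.07 (-0.52 to 0.37). TLR9 measured 2.31 with ODN 2006 and 2.32 with ODN 2006 CTL in Hs578T, and 2.34 and 2.32 in BT-20.

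The ODN arrays were also compared with the CDH13 arrays of run 2 in each line (2 against 2). These oligonucleotides differ in sequence, strands and chemistry, and the ODN cultures carry no set number, so kind of oligonucleotide and culture cannot be told apart. In Hs578T limma called 937 of 10375 genes (9.03%; 3.87% higher and 5.16% lower on the ODN arrays), and 0 of the 5 genes tested here. MYD88 averaged 9.10 ± 0.012 on the ODN arrays and 9.51 ± 0.13 on the CDH13 arrays of run 2 (SD, n = 2 each), a difference of -0.41 (SE 0.11, limma adjusted p = 0.0629). It passed the threshold in 5 of the alternative settings, with limma adjusted p between 0.0393 and 0.0476 there. IFI16 differed by -0.34 (SE 0.15, limma adjusted p = 0.185), and both ODN arrays lay below all 4 CDH13 arrays of Hs578T. The share of all genes with such a separation is not given here.

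In BT-20 the same comparison called 0% of genes by limma, with 534 at an unadjusted p under 0.05. MYD88 differed there by -0.06 (95% interval -0.32 to 0.20) and IFI16 by 0.18 (-0.17 to 0.53). The difference between the lines was called for 28 genes (0.27%; 0.202% higher and 0.0675% lower) and for 0 of these 5, at -0.52 for IFI16 (limma adjusted p = 0.297) and -0.35 for MYD88 (limma adjusted p = 0.328).

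Of 96 genes tested in the pathway lists, 5 (5.21%) were called between the ODN and CDH13 arrays of Hs578T, a share below the 9.03% of all genes. IRAK2 was higher on the ODN arrays (8.57 ± 0.32) than on the CDH13 arrays of run 2 (7.22 ± 0.13, SD, n = 2 each; log2 difference 1.34, limma adjusted p = 0.0126). PRKDC, the catalytic subunit of a DNA-dependent kinase, was 0.56 higher and IRF9, a part of the interferon-activated transcription complex, was 0.77 higher. RNASEH2B, a subunit of a ribonuclease that acts on RNA in DNA, fell by 1.27, and RNASET2, a lysosomal ribonuclease, fell by 0.48. PRKDC lost the call whichever 1 of the 8 arrays was left out (limma adjusted p between 0.0587 and 0.0990), and IRF9, RNASEH2B and RNASET2 for 7 of the 8 (0.0786 to 0.132). IRAK2 lost it without the CDH13 M array of set 2 in Hs578T (limma adjusted p = 0.0501). IRF9 and RNASEH2B also lost the call with no filter, and RNASET2 with the mean of probe sets, where it differed by -0.12. With that mean IRAK2 and RNASEH2B did not pass the filter. Calls were lost as well for IRF9 and RNASET2 with housekeeping centring, for RNASET2 with quantile normalisation, for PRKDC and IRF9 with the CDH13 arrays of both runs, and for RNASEH2B with values under 5 raised to 5, where it differed by -0.52.

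Set 2 was compared with set 1 within each line, a comparison chosen after seeing the data because the BT-20 arrays of set 1 stood apart. In BT-20 limma called 260 of 10410 genes (2.5%; 0.663% higher and 1.83% lower in set 2) and 0 of the 5 genes tested here. That balance turned with housekeeping centring, to 151 genes higher and 97 lower, against 69 and 191 as deposited. The centring followed PGK1, at 13.40 and 13.35 in set 1 and 13.22 and 13.19 in set 2. Of the 11 housekeeping genes, 8 were higher and 3 lower in set 2, with a median difference of 0.12. IFI16 was 2.12 higher in set 2 (SE 0.57, limma adjusted p = 0.105), STING1 was 1.27 higher (SE 0.45, limma adjusted p = 0.192) and MYD88 was 0.49 higher (SE 0.13, limma adjusted p = 0.107). Without the CDH13 U array of set 1, IFI16 and STING1 passed, at adjusted p = 0.00370 and 0.0353 by limma, but set 1 then held the CDH13 M array alone, which was assumed to vary like the other groups, and STING1 lay under 5 on 2 of the 3 BT-20 arrays left. With values under 5 raised to 5 the STING1 difference in BT-20 was 0.0025. In Hs578T limma called 285 genes (2.74%; 0.682% higher and 2.06% lower in set 2) and 0 of these 5, with IFI16 at -0.16 and STING1 at 0.07, whereas TLR4 differed by -1.52 (limma adjusted p = 0.0105).

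Set, run and culture cannot be told apart for these differences. The summed level of the 12 mesenchymal markers in BT-20 was log2 11.84 and 11.87 in set 2 and 12.73 and 13.17 in set 1. Such a sum is set by the brightest genes, here FN1 (10.18 to 12.87 in BT-20) and COL5A1 (10.27 to 10.56). By gene, 6 of these markers were higher and 6 lower in set 2, with a median difference of -0.0087. Their median level was 3.68 and 4.15 in set 2 and 3.41 and 3.32 in set 1. The summed level of the 12 epithelial markers was 16.42 and 16.50 in set 2 and 16.29 and 16.52 in set 1. The part of these markers in the set difference was not tested.

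After each line's mean was subtracted, the genes whose values followed IFI16 most closely over the 12 arrays were MBNL3 (r = 0.977), EPS8 (0.966) and TNFAIP8 (0.961). STING1 was followed most closely by STEAP3 (0.941), SCMH1 (0.939) and EIF2S3 (0.935), and MYD88 by TXNDC12 (0.971), PPP6R3 (0.957) and PIK3R3 (0.946), out of 9942 genes. IFI16 correlated at 0.838 with STING1 and at 0.833 with MYD88, whereas IRAK1 correlated with IFI16 at -0.46. These are descriptions over arrays that share a set and a run, and the low BT-20 values of set 1 enter each of them.

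Promoter windows, 250 bases before to 50 after the transcription start (RefSeq, GRCh38.p14), were found for 8 of the 10 genes, with STING1 and CGAS not listed. TLR9 and IRAK1 are shown because they hold the fewest and the most CpG dinucleotides among the genes with 1 listed start and stood under and over 5 on all arrays. CpG is in capitals and both windows run on the minus strand.
TLR9 (chr3:52225596-52225895): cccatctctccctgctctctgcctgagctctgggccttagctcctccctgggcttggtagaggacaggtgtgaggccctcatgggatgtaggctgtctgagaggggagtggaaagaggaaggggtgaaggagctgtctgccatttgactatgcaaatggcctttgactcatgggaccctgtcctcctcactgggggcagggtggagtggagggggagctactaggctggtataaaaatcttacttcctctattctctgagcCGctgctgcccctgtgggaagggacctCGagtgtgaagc
IRAK1 (chrX:154019853-154020152): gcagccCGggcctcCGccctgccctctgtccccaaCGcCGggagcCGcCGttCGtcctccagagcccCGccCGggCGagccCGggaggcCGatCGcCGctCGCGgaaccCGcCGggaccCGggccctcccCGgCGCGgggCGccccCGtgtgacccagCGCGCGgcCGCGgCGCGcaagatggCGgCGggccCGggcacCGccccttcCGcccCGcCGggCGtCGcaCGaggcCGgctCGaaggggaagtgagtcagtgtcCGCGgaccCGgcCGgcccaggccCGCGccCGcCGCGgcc
The TLR9 window holds 2 CpG dinucleotides and the IRAK1 window 52. TBK1 holds 35, IRAK4 28, MYD88 25, TLR3 5 and TREX1 3, while the 2 listed starts of IFI16 hold 1 and 3. Of 2517 genes with 0 to 5 CpG in this window (the richest of a gene's listed starts), 3.93% reached 5 on all 12 arrays, against 59.7% of 9612 genes with 20 or more, so MYD88, IRAK1 and TBK1 lay with the second kind of gene and TLR9 and TLR3 with the other. IFI16 reached 5 on 11 of 12 arrays with few CpG dinucleotides.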

How the data were processed

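The deposited values are log2 expression, 1 per probe set and array, which the submitters made with GCRMA in R 2.4 from 54675 probe sets. Whether the 12 arrays were normalised together is not given in the sources used here. Of these probe sets, 41097 have 1 gene in the probe table, 1801 several and 11777 none listed, and 41043 symbols were updated from RefSeq (GRCh38.p14) by gene ID. Each gene was represented by its brightest single-gene probe set, by the mean over all arrays. The columns not mapped to a sample number 0.

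Genes at 5 or above in at least 2 arrays of a fit entered limma (version 3.58.1, R version 4.3.3), which fitted 1 mean per group, then contrasts and eBayes, with Benjamini-Hochberg adjustment over all genes tested and a threshold of 0.05. For ODN 2006 against its control the lone arrays were assumed to vary like the CDH13 groups. Other settings were no filter, a filter at 6, quantile normalisation, housekeeping centring, the mean of a gene's probe sets, trend and robust eBayes, values under 5 raised to 5, each array left out and set as a block. Housekeeping centring subtracted the median of 11 housekeeping genes on each array, which was the value of PGK1 on all 12. When group means were removed, M and U arrays sharing a set correlated at 0.599 (Hs578T) and 0.595 (BT-20). Arrays of different lines correlated at 0.0984 to 0.131. Pair differences are therefore given by set within a line. The main fits did not pair the sets, so their spread includes the spread between sets. Pairing entered the fits only in the setting with set as a block. Run is inferred from a number in the array names, which the labels do not explain.

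The genes, lists and comparisons were chosen with earlier results of these data known. Genes named from a list were among the 4 with the smallest p in that comparison, apart from UNC93B1, IFNB1, TLR7, TLR8 and marker genes, named by their level. The fits were tested on simulated data. For M minus U, a simulated log2 difference of 1 was recovered at 46% in Hs578T, 34% in BT-20 and 66% over both lines. The rate was 12% for the difference between the lines and 44% for ODN 2006 against its control. A log2 difference of 2 was recovered at 78%, 87%, 93%, 65% and 77%, in the same order. Smaller differences can therefore be missed in these comparisons. Over all probe sets the correlation of 2 arrays was 0.985 to 0.998 in the same line and 0.887 to 0.906 in different lines, 33.9% to 35.0% of probe sets were at 5 or above, and the number of arrays limits the precision.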

Additional observations from a re-analysis of the deposited data

Results flagged for a closer look

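MYD88 differences between CDH13 M and U had opposite signs in the lines. With CDH13 M it was 0.10 and 0.18 higher than with CDH13 U in the sets of Hs578T, and differed by -0.27 and -0.08 in the sets of BT-20. The difference between the lines was 0.32 (SE 0.32, limma adjusted p = 0.999). It did not exceed the spread between arrays in this fit, which did not pair the sets.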

How the results depend on the processing

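The calls for IFI16, STING1, IRAK1 and TBK1 between the lines held in every setting run, with 4 genes called in each, set as a replicate block and each set alone, an alternative chosen after seeing the data, included. MYD88 turned to -0.39 with housekeeping centring and to -0.11 in set 2 alone, and leaving out single arrays moved it between -0.081 and 0.21. With the replicate block of set within line, 0 of these genes were called between M and U, or between ODN 2006 and its control, as without it. A level of 6 in place of 5 was reached by 4 genes on all Hs578T arrays, and a level of 4 by 4 genes on all BT-20 arrays.

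For M minus U in BT-20, leaving out single arrays moved MYD88 between -0.47 and 0.11, IRAK1 between -0.043 and 0.15, STING1 between -1.76 and 0.085, TBK1 between -0.15 and 0.10 and IFI16 between -2.502 and 0.77. Over both lines it moved MYD88 between -0.16 and 0.13 and IFI16 between -1.14 and 0.50, and for the difference between lines STING1 between -0.60 and 1.24 and IFI16 between -0.53 and 2.73. STING1 in that difference was -0.52 with values under 5 raised to 5.

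For ODN 2006 against its control, MYD88 was 0.0053 with quantile normalisation and 0.0085 with housekeeping centring, IFI16 0.040 and 0.0085, and IRAK1 0.020 with the mean of probe sets. The count over all genes was 1, against 150 with no filter, 3 with values raised to 5, 0 with trend and robust eBayes and 0 to 2 without single arrays. Single arrays moved IRAK1 between -0.12 and 0.036 and IFI16 between -0.22 and 0.17.

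For the ODN arrays against the CDH13 arrays in Hs578T, 1 gene (MYD88) was called with no filter, the mean of probe sets, trend and robust eBayes or values under 5 raised to 5, against 0 as reported, and 0 to 1 when single arrays were left out. STING1 was -0.094 with the mean of probe sets and TBK1 -0.026 with both runs. Single arrays moved IRAK1 between -0.090 and 0.22, STING1 between -0.12 and 0.48 and TBK1 between -0.0043 and 0.27. The count over all genes was 937, between 135 and 1528 when single arrays were left out, 1444 with trend and robust eBayes and 1600 with both runs. For the difference between lines it was 28, against 67 with no filter, 50 with values raised to 5, 129 with both runs and 7 to 155 without single arrays. In BT-20 it was 0, against 4 with no filter, 8 with both runs and 0 to 4 without single arrays. There, IFI16 was -0.20 with the mean of probe sets, MYD88 0.19 and IRAK1 -0.020 with both runs, and single arrays moved IRAK1 between -0.043 and 0.080 and STING1 between -0.26 and 0.59. In the difference between lines STING1 was -0.021 with housekeeping centring, -0.12 with the mean of probe sets, -0.048 with values raised to 5 and -0.59 with both runs, and TBK1 -0.17 with both runs. Single arrays moved IRAK1 there between -0.11 and 0.20, STING1 between -0.41 and 0.44 and TBK1 between -0.059 and 0.22.

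For set 2 minus set 1 in BT-20, 1 gene (IFI16) was called with the mean of probe sets or values under 5 raised to 5, and 0 to 2 when single arrays were left out, while IRAK1 was 0.098 with housekeeping centring and between -0.16 and 0.0069 without single arrays. Over all genes, set 2 minus set 1 called 260 genes in BT-20 (69 higher, 191 lower) and 285 in Hs578T (71 and 214) as deposited. With housekeeping centring it called 248 in BT-20 (151 and 97) and 200 in Hs578T (70 and 130), and with quantile normalisation 215 in BT-20 (90 and 125) and 244 in Hs578T (95 and 149). It called 417 in BT-20 with values raised to 5, and 43 to 458 in BT-20 and 43 to 372 in Hs578T without single arrays. In Hs578T single arrays moved IRAK1 between -0.15 and 0.17, STING1 between -0.24 and 0.37 and IFI16 between -0.33 and 0.0016. The cause of these changes was not tested. STING1 lay under 5 on 4 of 6 BT-20 arrays, and the number of arrays limits every interval.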
